A study of Mus musculus with 5 samples.

Results

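The genes that set the start of the cell cycle were followed across 5 populations of mononuclear phagocyte development in mouse bone marrow. The set holds the D cyclins Ccnd1, Ccnd2 and Ccnd3, their kinases Cdk4 and Cdk6, and the CDK inhibitors Cdkn1a, Cdkn1b, Cdkn2c and Cdkn2d, taken by name from a table of log2 array signals. A gene was read from a probe set that carries its symbol alone in the platform's annotation, and of several such probe sets the brightest on average was taken. By this rule 8 of the 9 genes were measured, among 19938 named genes in all. Cdkn1a, which encodes p21, has no probe set of its own symbol and is not given.

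Each population is 1 array of total RNA from wild-type C57Bl/6 mice, with cells sorted by flow cytometry and not treated. The monocyte-dendritic cell progenitor (MDP) was sorted as Lin- CD115+ CD117+ CD135+. The common dendritic cell progenitor (CDP) was sorted as Lin- CD115+ CD117int CD135+, and the common monocyte progenitor (cMoP) as Lin- CD115+ CD117+ CD135-. Classical monocytes were Lin- CD115+ Ly6C+ TremL4- cells, and nonclassical monocytes were Lin- CD115+ Ly6C- TremL4+ cells. The labels state neither the age of the mice nor how many stand behind an array. There are no replicates, so no difference below has a replicate check, no p-value was computed, and neighbouring levels of a gene cannot be separated by a spread. In sorted populations measured in bulk, fewer cells that express a gene and less of its RNA in each cell cannot be told apart.

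D cyclins are made in response to growth factors and bind CDK4 or CDK6, and the active kinases phosphorylate the retinoblastoma protein and its relatives. That releases E2F transcription factors, which drive the genes of DNA replication and of later cyclins. INK4 proteins, among them the products of Cdkn2c (p18) and Cdkn2d (p19), bind CDK4 and CDK6 and block their pairing with D cyclins. CIP/KIP proteins, among them the product of Cdkn1b (p27), bind cyclin-CDK complexes and inhibit CDK2 above all. In marrow, progenitors divide often, and the nonclassical monocyte is known as a cell that has left the cycle.

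Levels are log2 array signals and are compared only within a gene, since probe sets differ in brightness for the same amount of RNA. A difference is the first population minus the second, so that 1 log2 unit is 2-fold. To count as higher or lower, a gene had to differ by at least 1 log2 unit, and the brighter of the 2 arrays had to reach 6.27, the median of all named genes' values, called the floor here. The gate genes followed the sort. Kit was at 10.11, 8.16 and 9.37 in MDP, CDP and cMoP and at 5.79 and 5.61 in classical and nonclassical monocytes, and Treml4 was at 11.78 in nonclassical monocytes and at 6.18 or less elsewhere. In 46.6% of the 35556 probe sets 2 or more arrays hold exactly equal values, for which no label gives a reason, but none of the 8 measured genes has such a tie. Some genes of the lists compared below do, among them genes of mitosis and of transcription, and their difference between tied arrays is 0. Of the marker lists of other marrow cells, 0 to 1 of 8 T and NK cell genes, 2 to 3 of 7 B cell genes, 1 to 3 of 10 macrophage genes, 1 to 3 of 8 erythroid genes, 1 to 4 of 6 megakaryocyte genes, 2 to 3 of 8 basophil, mast cell and eosinophil genes and 3 to 5 of 10 stromal and endothelial genes reached the floor on an array. Cd3e of T cells, Pax5 of B cells and C1qa of macrophages stayed under it on all 5. Cd79b of B cells was at 8.41 to 9.50 over the 5 arrays, and Adgre1 of macrophages was at 9.65 in classical and 11.25 in nonclassical monocytes.

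The D cyclins split into a pair with lower signal in the monocytes and a member with higher signal there. Ccnd1, the cyclin D1 gene, had levels of 9.49 in MDP, 10.21 in CDP, 8.62 in cMoP, 6.92 in classical monocytes and 7.23 in nonclassical monocytes. CDP was the highest of the 5 and both monocyte arrays lay under all 3 progenitor arrays, with a gap of -1.39 between the nearer monocyte array and cMoP. Ccnd1 was the only measured gene of the set that differed past the threshold among the progenitors, being 3.01-fold lower in cMoP than in CDP (-1.59). Of 10441 genes tested in that comparison, 87 were lower by at least as much.

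Ccnd2, the cyclin D2 gene, had levels of 10.65 in MDP, 10.84 in CDP, 10.07 in cMoP, 6.77 in classical monocytes and 7.04 in nonclassical monocytes. The progenitor arrays lay close together, cMoP differing from CDP by -0.78, and both monocyte arrays lay far under them and less than 1 log2 unit above the floor. The level was 9.82-fold lower in classical monocytes than in cMoP (-3.30), and only 7 of the 10305 genes tested, Ccnd2 among them, were lower by that much or more. Over the 5 arrays its range of 4.07 log2 units was the widest of the 8 genes, and 1.96% of the 11058 genes with an array at or above the floor had a range as wide.

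Ccnd3, the cyclin D3 gene, ran the other way, with levels of 8.78 in MDP, 9.19 in CDP, 8.92 in cMoP, 9.96 in classical monocytes and 9.55 in nonclassical monocytes. Both monocyte arrays were above all 3 progenitor arrays, by a gap of 0.36. It was 2.07-fold higher in classical monocytes than in cMoP (1.05), just past the threshold, and quantile normalization of the arrays put that difference at 0.98. Its range of 1.18 was the smallest of the 8, and 29.4% of genes had a range as wide.

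**Figure D1:**
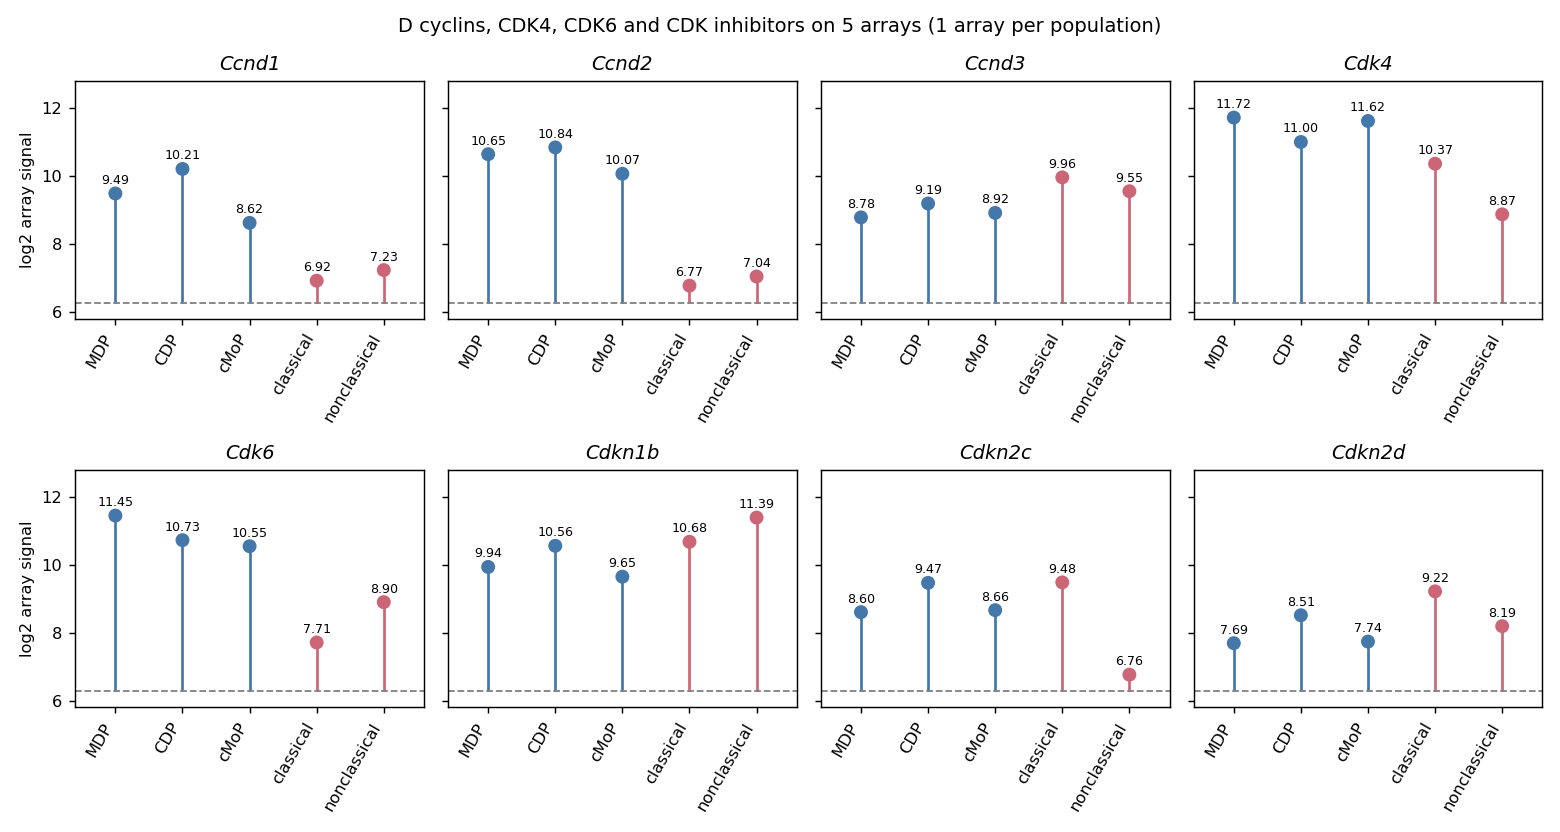
Level of each measured gene (log2 array signal) on the MDP, CDP, cMoP, classical and nonclassical monocyte arrays, 1 point per array with no error bars, progenitors in blue and monocytes in red. The dashed line is the floor at 6.27, from which each stem is drawn. Ccnd1, Ccnd2, Cdk4 and Cdk6 were lower on both monocyte arrays than on any progenitor array, Ccnd3 and Cdkn1b were higher there, and Cdkn2c was lowest in nonclassical monocytes at 6.76.

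The 2 kinases were also lower in the monocytes, in different orders. Cdk6, the partner kinase with a known part in blood progenitors, had levels of 11.45 in MDP, 10.73 in CDP, 10.55 in cMoP, 7.71 in classical monocytes and 8.90 in nonclassical monocytes. MDP was the highest and the classical monocyte the lowest, and the monocyte arrays lay under the progenitors by a gap of -1.65. Cdk6 was 7.14-fold lower in classical monocytes than in cMoP (-2.84), a drop matched or passed by 16 of 10305 genes including itself, and 2.28-fold higher in nonclassical than in classical monocytes (1.19).

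Cdk4 had levels of 11.72 in MDP, 11.00 in CDP, 11.62 in cMoP, 10.37 in classical monocytes and 8.87 in nonclassical monocytes. MDP and cMoP were close together, CDP lay under both, and the nonclassical monocyte was the lowest array. Cdk4 was 2.39-fold lower in classical monocytes than in cMoP (-1.26) and a further 2.81-fold lower in nonclassical than in classical monocytes (-1.49). The 2 monocyte arrays thus stood in opposite order for Cdk4 and Cdk6. Between the nonclassical monocyte and MDP the difference of Cdk4 was -2.85.

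Because these kinases were lower together in classical monocytes, the promoter letters of both are shown. The windows are the 250 bases before the gene start in RefSeq (GRCm38.p6), each on the plus strand, at chr10:127063285-127063534 for Cdk4 and chr5:3343643-3343892 for Cdk6. Capitals mark CACGTG, the E-box bound by MYC and related factors, and GGGCGG or its reverse complement CCGCCC, the GC box bound by SP factors.
Cdk4: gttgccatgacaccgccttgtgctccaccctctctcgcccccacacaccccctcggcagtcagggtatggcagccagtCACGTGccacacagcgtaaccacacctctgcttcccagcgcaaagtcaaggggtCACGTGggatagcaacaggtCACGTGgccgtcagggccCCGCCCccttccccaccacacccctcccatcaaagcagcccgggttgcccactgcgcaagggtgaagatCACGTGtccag
Cdk6: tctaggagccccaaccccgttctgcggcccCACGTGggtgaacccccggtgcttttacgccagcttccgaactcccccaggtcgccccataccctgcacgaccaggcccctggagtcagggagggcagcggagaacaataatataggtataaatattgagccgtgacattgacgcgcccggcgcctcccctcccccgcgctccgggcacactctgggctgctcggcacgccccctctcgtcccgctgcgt
CACGTG reads the same on both strands. The Cdk4 window held it 4 times, starting 172, 118, 98 and 11 bases before the gene start, and the Cdk6 window held it once, 220 bases before. Of 32851 promoter windows of this length, some of them for the same gene, 6.02% held it at least once and 7 held it 4 or more times. The E2F site in its spellings TTTCGCGC, TTTGGCGC, TTTCCCGC and TTTGCCGC was searched on both strands, as was the cyclic AMP element TGACGTCA, and no window of the set held any of them, against 1.86% and 1.55% of all windows. Windows were found for 7 of the 9 genes, Cdkn1a among them, but not for Ccnd1 and Ccnd2, whose promoters were not searched. The shorter form TGACGT stood in a Ccnd3 window, 28 bases before the gene start, and in 6.47% of all windows. A match describes the letters and is not evidence of binding.

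The 3 measured inhibitors had their own patterns, and Cdkn2d lay closer in shape to Cdkn1b (root mean square difference of 0.57 log2 units after each gene's own mean was subtracted) than to Cdkn2c (0.91). Cdkn1b, the p27 gene, had levels of 9.94 in MDP, 10.56 in CDP, 9.65 in cMoP, 10.68 in classical monocytes and 11.39 in nonclassical monocytes. The nonclassical monocyte was the highest array and cMoP the lowest, while CDP lay only 0.12 under the classical monocyte. The level was 2.04-fold higher in classical monocytes than in cMoP (1.03, and 0.97 after quantile normalization), and 3.34-fold higher in nonclassical monocytes than in cMoP. Cdkn1b is the only gene of the set with a second probe set of its own, which read 8.64, 8.90, 8.50, 9.68 and 10.19 over MDP, CDP, cMoP, classical and nonclassical monocytes. Both probe sets gave the same order of the 5 populations, and the second had a difference of 1.18 between classical monocytes and cMoP. For CDP the second put smaller differences, 0.26 for CDP against MDP and -0.40 for cMoP against CDP, where the first had 0.62 and -0.91. It also put CDP farther under the classical monocyte, at 8.90 against 9.68.

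Cdkn2c, the p18 gene, had levels of 8.60 in MDP, 9.47 in CDP, 8.66 in cMoP, 9.48 in classical monocytes and 6.76 in nonclassical monocytes. CDP and the classical monocyte stood together at the top, MDP and cMoP together under them, and the nonclassical monocyte lay far under all 4. It was 6.58-fold lower in nonclassical than in classical monocytes (-2.72), which 173 of 10503 genes matched or passed.

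Cdkn2d, the p19 gene, had levels of 7.69 in MDP, 8.51 in CDP, 7.74 in cMoP, 9.22 in classical monocytes and 8.19 in nonclassical monocytes. As for Cdkn2c, MDP and cMoP were nearly equal, CDP was above them and the classical monocyte was the highest. It was 2.79-fold higher in classical monocytes than in cMoP (1.48) and 2.04-fold lower in nonclassical than in classical monocytes (-1.03, and -0.73 after quantile normalization). The nonclassical monocyte array still lay 0.45 above cMoP for Cdkn2d, whereas for Cdkn2c it lay 1.90 log2 units under cMoP, a difference of -1.90.

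The promoter windows of the 2 INK4 genes, which were both lower in nonclassical than in classical monocytes, are given on the minus strand at chr4:109666757-109667006 for Cdkn2c and chr9:21291210-21291459 for Cdkn2d (RefSeq, GRCm38.p6), with GC boxes in capitals. Cdkn2c has a second RefSeq window, not shown, that held neither motif.
Cdkn2c: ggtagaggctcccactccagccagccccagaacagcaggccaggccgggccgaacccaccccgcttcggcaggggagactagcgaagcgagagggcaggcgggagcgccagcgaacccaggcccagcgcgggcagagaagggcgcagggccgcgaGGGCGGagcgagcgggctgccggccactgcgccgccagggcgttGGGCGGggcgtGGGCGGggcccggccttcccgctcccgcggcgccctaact
Cdkn2d: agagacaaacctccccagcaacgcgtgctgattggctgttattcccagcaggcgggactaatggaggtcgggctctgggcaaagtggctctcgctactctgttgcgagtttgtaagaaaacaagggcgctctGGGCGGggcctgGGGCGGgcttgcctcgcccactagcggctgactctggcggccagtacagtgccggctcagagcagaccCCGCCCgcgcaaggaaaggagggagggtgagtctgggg
Each window held 3 GC boxes over both strands and no CACGTG. At least 3 GC boxes were found in 8.47% of all windows and at least 1 in 32.7%.

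Set against each other by comparison, the fewest genes passed the threshold between progenitors and the most between the classical monocyte and cMoP. In CDP against MDP none of the 8 passed the threshold, where 1.15% of 10416 genes were higher and 1.06% lower. Cdkn2c (0.86), Cdkn2d (0.82), Ccnd1 (0.72) and Cdkn1b (0.62) leaned higher in CDP, and Cdk4 and Cdk6 leaned lower (both -0.72). The second Cdkn1b probe set was at 0.26 there. In cMoP against MDP again none passed, with 1.44% of genes higher and 1.4% lower. The largest differences there were Cdk6 at -0.90, or -1.05 after quantile normalization, and Ccnd1 at -0.87. In cMoP against CDP 1 of 8, Ccnd1, was lower and 0 were higher, where 2.2% of genes were lower and 3.23% higher. Quantile normalization put 3 of 8 lower, adding Cdkn1b (-1.10) and Ccnd2 (-1.02), which were at -0.91 and -0.78 as deposited. The second Cdkn1b probe set was at -0.40 as deposited. Cdk4 was the only gene of the 8 with a positive difference in this comparison (0.62).

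In classical monocytes against cMoP 4 of 8 were lower (Ccnd1, Ccnd2, Cdk4 and Cdk6) and 3 were higher (Ccnd3, Cdkn1b and Cdkn2d), where 4.4% of 10305 genes were lower and 7.01% higher. Cdkn2c, at 0.82, was the only one within the threshold. After quantile normalization 1 of 8, Cdkn2d, was higher. The median difference of the 8 was -0.22, which averages over opposite directions, against -0.01 for all genes tested. Neutrophil marker genes differed in the same comparison, with 5 of 10 higher and 1 lower. Of these 10 genes 3, 4, 6, 6 and 3 reached the floor over MDP, CDP, cMoP, classical and nonclassical monocytes, with list medians from 5.62 to 6.76. Those higher were Mmp8 (4.26) and Ngp (1.53), which encode neutrophil granule proteins, and S100a9 (3.66), Lcn2 (1.48) and S100a8 (1.41). Ngp was under the floor in cMoP, and with that level set to the floor it was at least 1.28-fold higher, under the threshold. With all such levels set to the floor, 4 of these genes were higher and 0 lower. Mmp8 was at 11.28 in classical monocytes and 7.02 in cMoP, and Ltf and Retnlg were under the floor on all arrays. Of the other marker lists, Adgre1 and Siglec1 of macrophages were higher, and Tfrc of the erythroid list, Cd79b, Mcpt8 of basophils, Pecam1 and Pdgfrb of the stromal and endothelial list were lower. Siglec1 in cMoP and Pdgfrb in classical monocytes (5.49) were under the floor. With those levels set to the floor neither passed the threshold, Siglec1 being at least 1.43-fold higher. In nonclassical against classical monocytes 4 of the neutrophil genes were lower, where 9.82% of all genes were lower. Adgre1 (1.60), Prss34 of basophils (1.34) and Pdgfrb were higher there, where 3.55% of all genes were higher. With its level in classical monocytes set to the floor, Pdgfrb did not pass the threshold. The part of other cells in the differences of the cell cycle genes was not tested.

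In nonclassical against classical monocytes 3 of 8 were lower (Cdk4, Cdkn2c and Cdkn2d) and 1 was higher (Cdk6), where 9.82% of 10503 genes were lower and 3.55% higher. The background itself depends on scaling, with 373 genes higher and 1031 lower as deposited and 505 and 753 after quantile normalization, which moved the median difference of all genes to 0.08, against -0.09 as deposited. Cdk4 (-1.49), Cdkn2c (-2.72) and Cdk6 (1.19) stayed past the threshold after quantile normalization, and Cdkn2d did not (-1.03 as deposited and -0.73 after it). Ccnd1 (0.31), Ccnd2 (0.27) and Ccnd3 (-0.41) were within the threshold. Taking both monocyte arrays against all 3 progenitor arrays, 3 of 8 (Ccnd1, Ccnd2 and Cdk6) were lower by a gap of 1 log2 unit or more, Cdk4 was lower by a gap of -0.64, and 0 were higher past the threshold, where 0.787% of 11058 genes were lower and 2.38% higher.

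**Figure D2:**
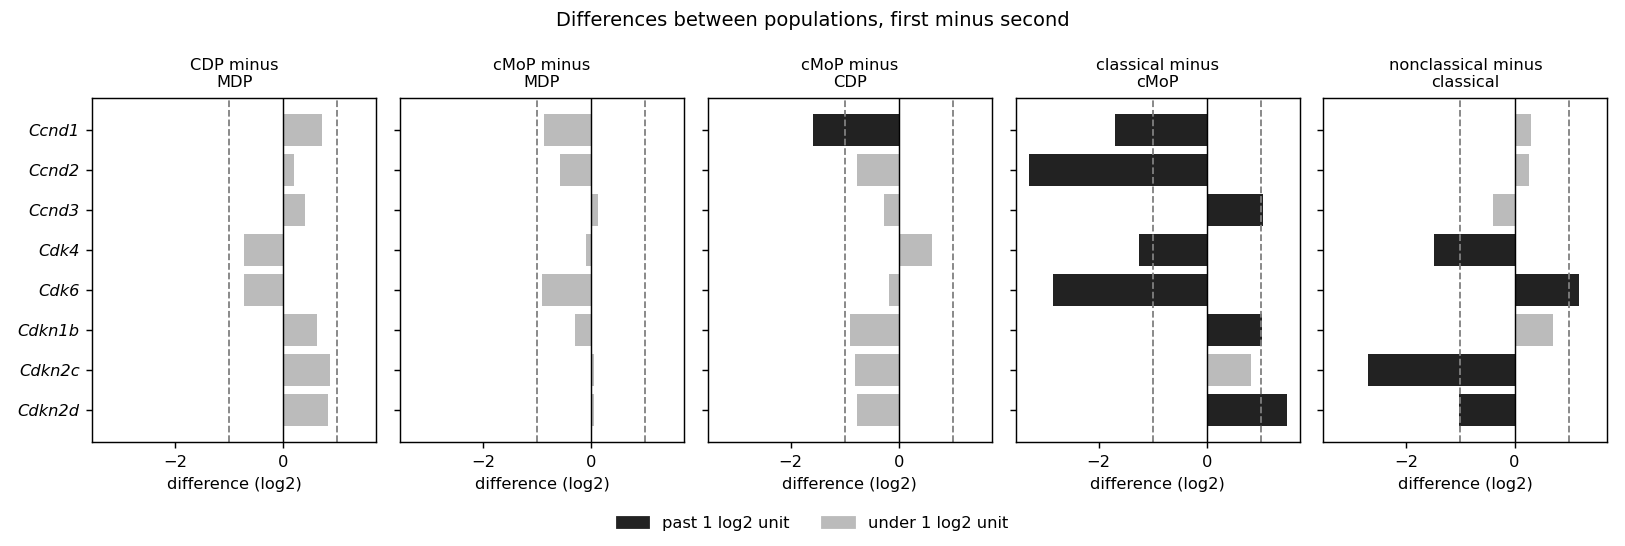
Differences of the 8 genes in log2 units (x axis) in the 5 comparisons, first population minus second, from 1 array each. Black bars are past 1 log2 unit in either direction (dashed lines) and grey bars are not. The classical monocyte against cMoP holds 7 black bars, 4 lower and 3 higher, while the 2 comparisons with MDP hold none.

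Most later cell cycle genes did not pass the threshold where Ccnd1, Ccnd2 and Cdk6 did. In classical monocytes against cMoP none of the 5 genes for cyclin E, cyclin A, CDK2 and CDC25A passed the threshold, nor did any of 17 measured genes of G2 and mitosis, which had a median difference of 0.11 and ran from -0.25 to 0.63. The 19 measured E2F target genes of DNA replication were all under 0 but none past the threshold, with a median of -0.66 and differences from -0.92 to -0.11. Of all genes tested in that comparison, 4.4% were lower and 7.01% higher. Mki67, a marker of cycling cells, was at 11.26 in classical monocytes and 10.64 in cMoP. Ccna2, the cyclin A2 gene, was at 11.22 in classical monocytes and 10.91 in cMoP. The classical monocyte array, the lowest of the 5 for Ccnd1, Ccnd2 and Cdk6, thus had levels of mitotic genes close to those of cMoP. In cMoP against CDP, where Ccnd1 and 2.2% of all genes were lower, 2 of the 17 mitotic genes were lower, Mki67 (-1.04) and Cenpf (-1.01). Once arrays were centred on their medians, Mki67 and Cenpf were at -0.98 and -0.95.

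These later genes were lower on the nonclassical monocyte array. All 17 measured G2 and mitosis genes were lower there than in classical monocytes, but for 13 of them the nonclassical level was under the floor, so that their differences are bounds. With those levels set to the floor, the differences ran from -5.01 to -2.43 with a median of -3.36, against a median of -0.09 for all genes tested. The measured values had a median of -4.33. Kif11, a mitotic motor, was at least 18.6-fold lower, and Birc5, which encodes survivin, at least 20.4-fold lower. Mki67 was at 6.93 in nonclassical and 11.26 in classical monocytes, a 20.1-fold difference. Of the replication genes 17 of 19 were lower (median -2.14, or -2.09 with the 6 levels under the floor set to it), the exceptions being Pcna, the sliding clamp, at -0.996 and Gins2 at -0.85. All 5 genes of the cyclin E, cyclin A and CDK2 list were lower, with Ccna2 at least 31.0-fold lower when its level of 6.01 was set to the floor, Ccne2 6.01-fold lower and Cdk2 2.65-fold lower. Of 9 E2F and DP genes past the floor 6 were lower, among them E2f8, a repressor of the family, at least 13.3-fold, and Tfdp1, a partner of E2F proteins, 5.69-fold. Of the DREAM and B-MYB complex list, which holds genes that time this programme, 3 of 7 were lower, Foxm1 by at least 7.67-fold, Lin9 (-1.28) and Mybl2 (-1.20, and -0.96 after quantile normalization). None (0 of 12) of the cyclins and kinases of transcription, such as Cdk9 and Ccnt1, were past the threshold in either direction in this comparison (median 0.00), where 9.82% of all genes were lower and 3.55% higher.

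**Figure D3:**
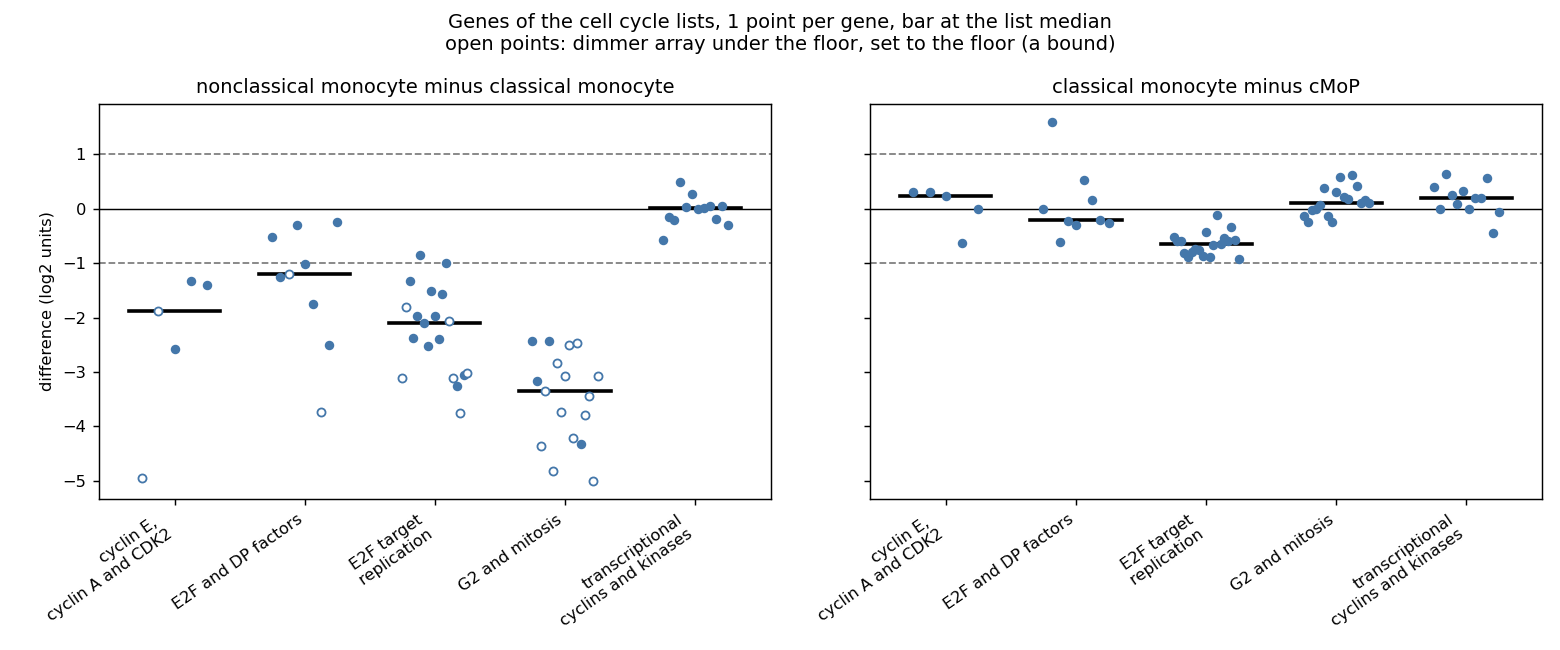
Differences in log2 units for the measured genes of 5 lists, 1 point per gene past the floor with a bar at the list median and open points for genes whose dimmer array was set to the floor, for nonclassical minus classical monocytes (left) and classical monocytes minus cMoP (right). Dashed lines mark 1 log2 unit. The G2 and mitosis genes lie between -5.01 and -2.43 on the left, 13 of them as bounds, and between -0.25 and 0.63 on the right, while the cyclins and kinases of transcription lie within the dashed lines on both sides.

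The substrates and other regulators had mixed patterns. Rb1, which encodes the retinoblastoma protein, was 2.47-fold higher in classical monocytes than in cMoP (1.31) and was at 10.32 in nonclassical monocytes, its highest array, against 8.38 in MDP, its lowest. Rbl1, which encodes the relative p107, was 2.03-fold lower in nonclassical than in classical monocytes (-1.02, and -0.74 after quantile normalization). Rbl2, which encodes p130, stayed within the threshold in all 5 comparisons. E2f2, an activating E2F, was 3.02-fold higher in classical monocytes than in cMoP (1.60) and 2.38-fold lower in nonclassical than in classical monocytes (-1.25, and -0.97 after quantile normalization).

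Of the inhibitors outside the set, Cdkn2a, Cdkn2b and Cdkn1c were under the floor on all 5 arrays, where no difference is read. Cdkn3, a phosphatase that acts on CDKs, was at 5.46 in nonclassical monocytes and 9.58 in classical monocytes, at least 9.93-fold lower. Among 13 genes of cyclin and inhibitor turnover, none passed the threshold in classical monocytes against cMoP, where 4.4% of all genes were lower and 7.01% higher. In nonclassical against classical monocytes, where 9.82% of all genes were lower, 4 of the 13 were lower. These were Cks1b, a subunit that helps the SCF ligase take p27, 17.5-fold lower (-4.13), Skp2, the p27-recognizing subunit of that ligase, at -1.08 (-0.87 after quantile normalization), Dtl, at least 2.50-fold lower, and Cul4b at -1.54. Cdkn1b RNA was at its highest level, 11.39, on the array with these lower levels of Cks1b and Skp2. The arrays do not measure p27 protein, and a link between these levels was not tested.

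Of 4 measured genes in the list of the CDK-activating kinase, which phosphorylates CDKs, 2 were lower in nonclassical than in classical monocytes. Of all genes 9.82% were lower there. The 2 were Ccnh (-1.31) and Mnat1 (-1.18, and -0.99 after quantile normalization), with Cdk7 at -0.41 and Cdc37, a chaperone partner of CDK4, at -0.76. Mnat1 was also 2.03-fold lower in classical monocytes than in cMoP (-1.02), where 4.4% of all genes were lower. In that comparison Ccnh (-0.76), Cdk7 (-0.46) and Cdc37 (-0.30) were within the threshold. Of the FOXO genes, known activators of Cdkn1b, Foxo1 was at 7.77 in nonclassical monocytes and 7.03 in classical monocytes, a difference of 0.75, and Foxo3 at 8.63 and 8.62, both within the threshold. Zbtb17, which encodes MIZ1, differed by 0.08, and Foxo4 was under the floor on all arrays. Among 14 p53 target genes past the floor, 4 were higher in nonclassical than in classical monocytes and 1 lower (median 0.24), where 3.55% of all genes were higher and 9.82% lower. Pmaip1 was 4.23-fold higher, Btg2, an antiproliferative gene, 2.39-fold higher and Gtse1 2.66-fold lower. Plk2 and Phlda3 were under the floor in classical monocytes. With those levels set to the floor, Phlda3 was at least 1.99-fold higher, which is under the threshold, and Plk2 was just past it. Mdm2 and Ccng1, p53 targets too, were at 0.02 and 0.11. In classical monocytes against cMoP 2 of 10 p53 targets past the floor were higher and 0 lower, where 7.01% of all genes were higher and 4.4% lower. Btg2 was 5.27-fold higher there (2.40), a larger step than between the monocytes. Trp53inp1 was at least 3.50-fold higher with its cMoP level set to the floor.

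The genes nearest in pattern were found as those with the smallest root mean square difference over the 5 arrays after each gene's own mean was subtracted, among genes with an array at or above the floor. With 5 arrays this is a description of shape, and levels under the floor entered it as measured. Cdk4 had close neighbours, Adi1 at 0.06, Idh2 at 0.08 and Nhp2, a ribosome assembly gene, at 0.10 log2 units. Cdkn2c lay nearest to Tcf19 (0.11), the histone gene H2bc18 (0.19) and Prdx4 (0.20), and Cdkn2d to Sp100 (0.08), Stx7 (0.15) and Trim30d (0.16). Ccnd3 lay nearest to Tmem189, Tmem219 (both 0.06) and Ppef2 (0.06), and Cdkn1b to D330041H03Rik, Cds2 (both 0.10) and Camta2 (0.11). Adi1, Tcf19 and H2bc18 were under the floor in nonclassical monocytes, and Ppef2 on every array but that of classical monocytes.

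Unlike Cdk4, the genes that were lower in both monocytes by a gap of 1 log2 unit or more (Ccnd1, Ccnd2 and Cdk6) had more distant neighbours. The distance is not scaled to a gene's range, and these genes had wider ranges (3.29, 4.07 and 3.74) than Cdk4 (2.85). Ccnd2 lay nearest to B3gnt5 (0.25), Il12a (0.36) and Nedd4 (0.39), all of them under the floor on both monocyte arrays. Cdk6 lay nearest to Bcl2, the survival gene (0.34), and the progenitor transcription factors Sox4 (0.38) and Erg (0.42). Ccnd1 lay nearest to Ttc3, S1pr3 (both 0.41) and Satb1 (0.42). S1pr3 and Erg were also under the floor on both monocyte arrays, and Sox4 was under it in classical monocytes. Within the set, the closest pair was Ccnd3 with Cdkn2d at 0.26, Ccnd1 with Cdk6 were 0.60 apart, and Ccnd2 with Cdkn1b were the farthest at 2.26.

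**Figure D4:**
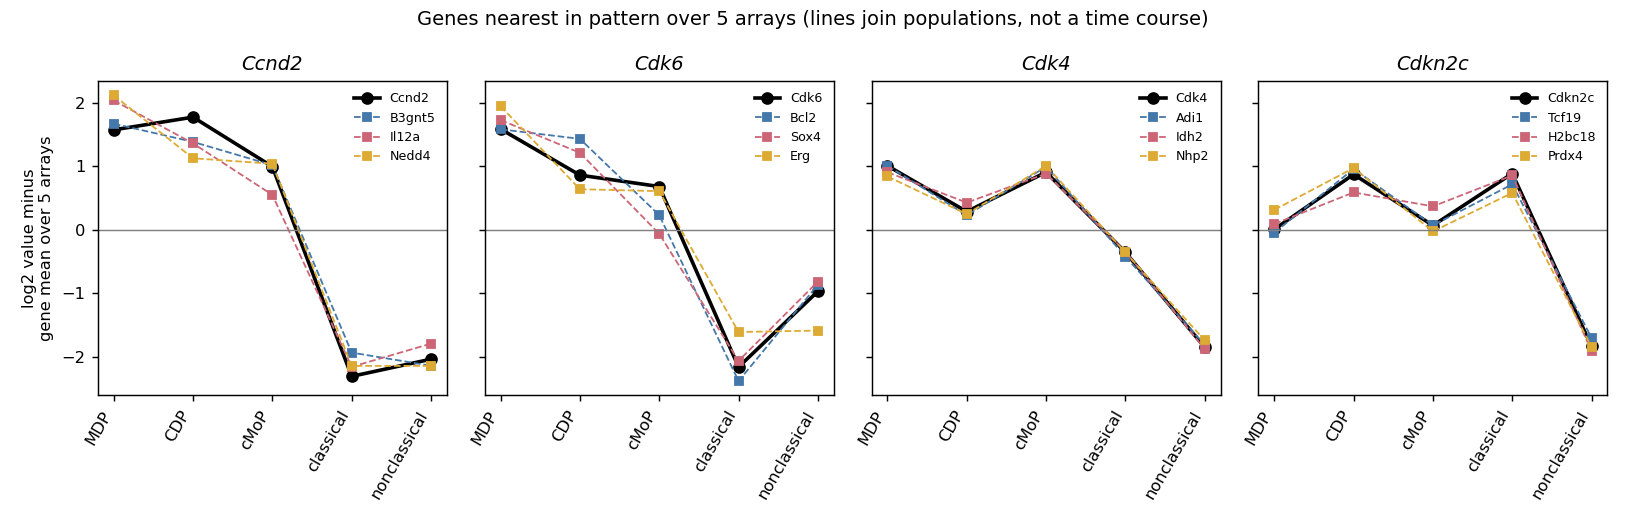
Level minus the gene's own mean over the 5 arrays (log2 units) for Ccnd2, Cdk6, Cdk4 and Cdkn2c (black) and the 3 genes nearest in pattern to each (coloured, dashed lines), with 1 array per population and lines that only guide the eye. Cdk4 and its nearest gene Adi1 differ by a root mean square of 0.06 log2 units, and Cdk6 and its nearest gene Bcl2 by 0.34.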

How the data were processed

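Expression was measured on arrays in 5 sorted marrow populations, 1 array each, grouped by sample title. The deposited values are on a log2 scale, read from their range of 1.59 to 14.24. The sources used here do not state the authors' background correction, scaling or log base, and another base would change each fold. Per the labels' protocols, the RNAqueous-Micro kit gave the RNA and a Nugen Encore Biotin kit the label. Of 35556 probe sets 21789 carry 1 symbol in the platform annotation, 1621 several and 12146 are not listed, and Entrez identifiers of 21698 were found in RefSeq (GRCm38.p6), with 0 symbols changed. Array medians ran from 6.02 to 6.16. Differences, counts and distances were computed with pandas 2.3.3 and numpy 2.4.6 over all named genes. The counting rule was run on simulated data with changes far past the threshold, which checks the code and not false calls between single arrays. The floor is the median of all named genes' values. All members were named, with the 3 genes nearest in pattern to each. Of another list, at most 4 genes past the threshold in a comparison could be named, or the whole list where it has 5 or fewer. Mki67, Birc5, E2f2, Phlda3, Btg2, Cdk9, Ccnt1, Mdm2, Ccng1, Pcna, Gins2 and the marker examples were named after their values were seen. Of 203 list entries 192 were measured. The members and lists were chosen with earlier results of these data known. The alternatives were centring, quantile normalization, a higher floor, no floor and averaging a gene's probe sets. The number of arrays limits precision.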

Additional observations from a re-analysis of the deposited data

How the results depend on the processing

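The differences and the counts of genes past the threshold were recomputed under 5 alternatives, and the pattern distances, ranges and promoter counts were not. The alternatives were arrays centred on their medians, quantile normalization, a floor at the upper quartile (7.93), no floor, and averaging a gene's probe sets. Of 200 recomputed differences of the 8 genes, 194 kept their side of the threshold, 3 passed it and 3 left it, all 6 of these under quantile normalization, and none changed sign. Most of the 200 could not move, so the 194 overstates how far the differences were tested. Raising or removing the floor alters no difference, and averaging probe sets alters only those of Cdkn1b. Under that setting the count of lower genes was 1 in cMoP against MDP and 3 in cMoP against CDP, where it was 0 and 1, and the count of higher genes was 1 in classical monocytes against cMoP, where it was 3. Of 1260 counts recomputed for the lists, 25 moved by more than 1.5 times. The floor at the upper quartile gave 61 lower genes of all tested in CDP against MDP, 73 in cMoP against MDP and 149 in cMoP against CDP, against 110, 143 and 230, since fewer genes were tested. No replicate could be left out with 1 array per population. No paired analysis was possible because each population has 1 array. Differences of genes near the floor, such as Ccnd1 and Ccnd2 in monocytes, rest on dim signal on that side.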
